A study of Mus musculus with 8 samples.

Results

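Chemokines are small secreted proteins that draw leukocytes into tissue, and 10 of their genes, *Ccl2*, *Ccl5*, *Ccl6*, *Ccl9*, *Cxcl1*, *Cxcl9*, *Cxcl10*, *Cxcl12*, *Cxcl13* and *Cxcl16*, were examined in mouse livers lacking *Fxr* with and without hepatocyte *Bcl6*. They were taken by symbol from a count table of 24940 genes, and 9 of them were among the 12340 genes with enough counts to be tested. *Cxcl13* had too few counts for a test. Livers came from 4 FxrKO males and 4 Bcl6LKOFxrKO males on the C57BL/6 strain. FxrKO mice (genotype Bcl6(fl/fl), FXR(homo)) lacked *Fxr* (*Nr1h4*), the gene of the bile acid receptor FXR, in the whole body and carried floxed *Bcl6* without Cre. Bcl6LKOFxrKO mice carried the same alleles together with Alb-Cre, in which the Albumin promoter drives Cre in hepatocytes, so that *Bcl6* was deleted there. Counts of whole liver do not show whether all other liver cells kept it. All 8 livers therefore lacked *Fxr* and carried floxed *Bcl6*, no liver with intact *Fxr* was analysed here, and Cre was present in 1 group only. Loss of *Bcl6*, presence of Cre and the liver disease of the double knockout cannot be told apart in this comparison. Mice were either fed ad libitum or fasted for 4 hours, and which applied to these livers was not given in the sources used here, nor was their age.

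BCL6 is a transcriptional repressor known to hold down many chemokine genes in macrophages and lymphocytes. CC and CXC chemokines are named for the spacing of their first cysteines, and they act through G protein-coupled receptors on leukocytes, while atypical receptors take them up without signalling. In the liver, hepatocytes, cholangiocytes, Kupffer cells, stellate cells and sinusoidal endothelium can all make them, and bile acid overload, tumor necrosis factor and interferon gamma are known inducers. Ligands that draw neutrophils (*Cxcl1*) or monocytes (*Ccl2*) are classical NF-kappaB targets, *Cxcl9* and *Cxcl10* are induced by interferon gamma, and *Cxcl12* is made constitutively by stromal and endothelial cells.

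Promoter sequence was available for 7 of the 10 genes (*Ccl6*, *Ccl9*, *Cxcl1*, *Cxcl9*, *Cxcl10*, *Cxcl12* and *Cxcl13*) in a RefSeq table of build GRCm38.p6, the assembly also called mm10. Each starts at the start of the transcript that was counted. The 250 bases upstream of 5 of them are shown, because these genes behaved differently across the livers. *Ccl9*, *Cxcl9* and *Cxcl12* separated the genotypes, whereas *Cxcl1* and *Cxcl10* overlapped between them and had a wide spread among FxrKO livers. Each sequence runs 5′ to 3′ on the strand of its gene, and capitals mark matches to the NF-kappaB consensus or to the core of an interferon-stimulated response element (GAAA, any 2 bases, then GAAA), on either strand.
Ccl9 (chr11:83578637-83578886, minus strand): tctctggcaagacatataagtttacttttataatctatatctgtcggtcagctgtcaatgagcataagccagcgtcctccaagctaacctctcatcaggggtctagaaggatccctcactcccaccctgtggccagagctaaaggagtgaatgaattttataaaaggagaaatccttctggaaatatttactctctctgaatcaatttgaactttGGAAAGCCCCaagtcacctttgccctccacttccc
Cxcl9 (chr5:92328080-92328329, minus strand): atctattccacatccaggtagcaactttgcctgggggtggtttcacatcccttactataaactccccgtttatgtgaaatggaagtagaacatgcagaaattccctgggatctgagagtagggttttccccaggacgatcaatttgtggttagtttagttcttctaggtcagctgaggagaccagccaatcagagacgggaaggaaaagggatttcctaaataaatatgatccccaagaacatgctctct
Cxcl12 (chr6:117168285-117168534, plus strand): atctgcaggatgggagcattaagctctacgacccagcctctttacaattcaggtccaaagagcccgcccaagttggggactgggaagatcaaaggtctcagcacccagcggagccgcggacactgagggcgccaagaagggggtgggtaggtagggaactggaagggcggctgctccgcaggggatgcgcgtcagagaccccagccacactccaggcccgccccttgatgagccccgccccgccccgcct
Cxcl1 (chr5:90890995-90891244, plus strand): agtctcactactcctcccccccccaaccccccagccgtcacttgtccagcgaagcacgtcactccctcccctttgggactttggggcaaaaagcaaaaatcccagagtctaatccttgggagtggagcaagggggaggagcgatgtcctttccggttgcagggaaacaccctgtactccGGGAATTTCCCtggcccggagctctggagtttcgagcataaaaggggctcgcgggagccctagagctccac
Cxcl10 (chr5:92348890-92349139, minus strand): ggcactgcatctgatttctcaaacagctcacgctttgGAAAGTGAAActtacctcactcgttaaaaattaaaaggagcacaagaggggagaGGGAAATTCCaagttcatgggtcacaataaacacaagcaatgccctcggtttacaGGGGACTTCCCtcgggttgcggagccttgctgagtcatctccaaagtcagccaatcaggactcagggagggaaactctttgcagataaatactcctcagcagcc
The NF-kappaB consensus was matched in 3 of the 7 promoters and in 7.25% of the 32851 promoters of the table. In *Cxcl1* the match spans bases -71 to -61 from the start site, as 2 overlapping matches on opposite strands. *Cxcl10* had a match from -159 to -150 and overlapping matches from -104 to -94. *Ccl9* had a single match from -35 to -26, on the strand opposite to the gene. The core of the interferon-stimulated response element was found in *Cxcl10* only, from -213 to -204, and in 2.98% of all promoters. TTCNNNGAA, the core of BCL6 binding sites, was found in none of the 7 and in 7.02% of all promoters. No match says only that these letters are not in this window.

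The libraries held between 7586241 and 11839503 counts on genes, so that 3 counts were worth 0.272 to 0.375 CPM, library-size scaled counts with TMM factors applied, the unit of all levels below. *Bcl6* was lower in every Bcl6LKOFxrKO liver than in any FxrKO liver, with a log2 fold change (log2FC) of -2.72. *Nr1h4* was still counted in all 8 livers (60.0 ± 2.46 CPM in FxrKO and 43.5 ± 3.69 in Bcl6LKOFxrKO livers, SD, n = 4), and it was called lower in the double knockout without overlap of the livers (log2FC -0.46, edgeR adjusted p = 0.00497). These counts run over all exons of its transcript, so they do not test the deletion. The 50 most counted genes took 29.8% to 31.2% of the counts in FxrKO and 40.7% to 44.1% in Bcl6LKOFxrKO livers. Hepatocyte markers were the most abundant of the marker lists in every liver, led by *Alb*, *Ahsg* and *Apoa1*. Scaling by total counts alone lowered the log2FC of genes by a median of 0.16, and the share of called genes that were higher went from 54.5% to 32.3%. All p-values set the difference between the groups against the spread between these livers.

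Of the 9 tested chemokine genes, 4 were higher in Bcl6LKOFxrKO livers (*Ccl5*, *Ccl9*, *Cxcl9* and *Cxcl16*), 1 was lower (*Cxcl12*) and 4 were not called (*Ccl2*, *Ccl6*, *Cxcl1* and *Cxcl10*). The 4 that rose did so by 2.52-fold to 3.06-fold. Genes were called at an adjusted p under 0.05 from edgeR's quasi-likelihood test, and over all tested genes 16.2% were called higher, 13.5% lower and 29.7% in either direction. The count of chemokine genes is read against those shares, with a limit set by the filter on counts. For *Ccl5* and *Ccl2* only the Bcl6LKOFxrKO group had enough counts in all 4 livers, so each was tested through the group where its mean was higher. *Cxcl13*, whose mean was higher in FxrKO livers, was not tested. Without a filter 4 of the 10 genes were called higher and 1 lower. The median log2FC of the 9 tested genes was 1.21 and that of all tested genes was 0.01. In the 5 called genes the groups did not overlap, and among all tested genes every Bcl6LKOFxrKO liver was above every FxrKO liver in 16.1% and below in 15.2%. In whole liver RNA, a change in the number of cells of a type and a change of RNA per cell cannot be told apart.

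**Figure D1:**
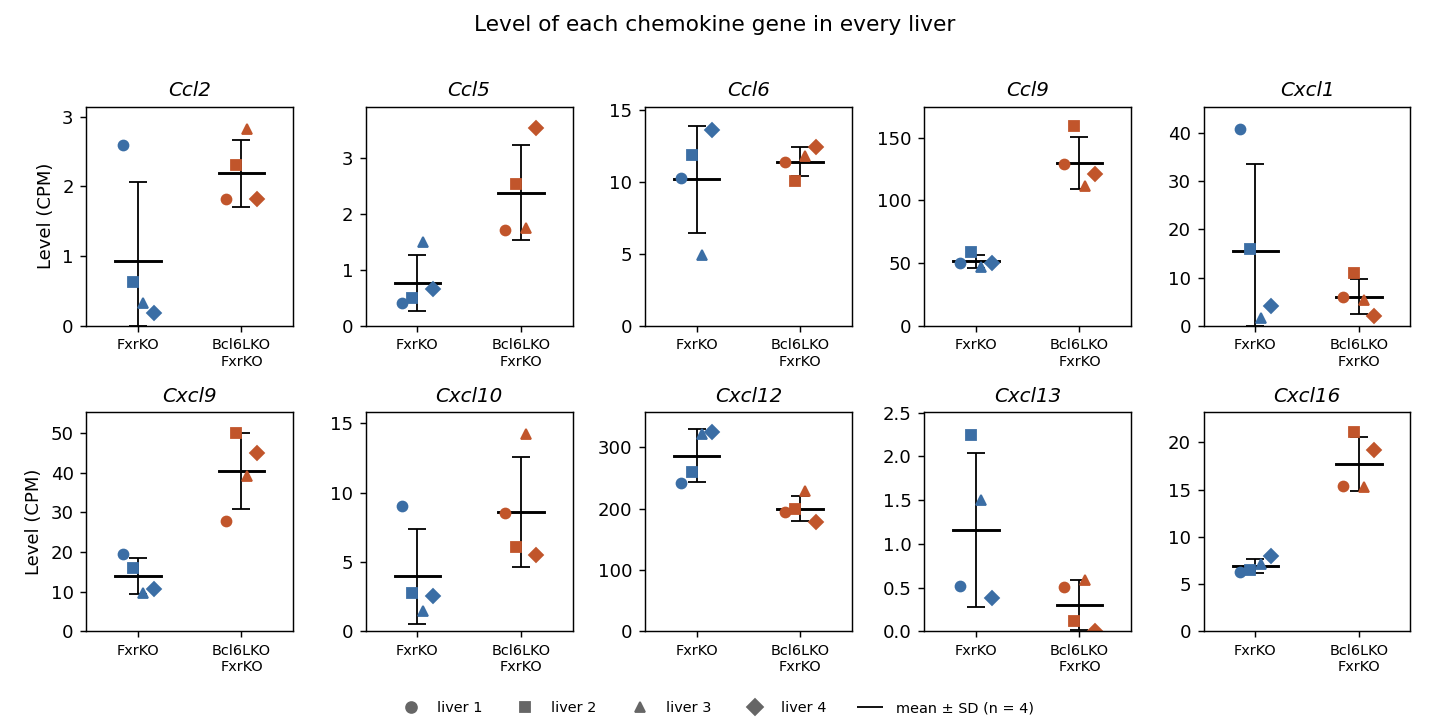
Level of each of the 10 chemokine genes in CPM (y axes, linear, starting at 0) in the 4 FxrKO livers (blue) and the 4 Bcl6LKOFxrKO livers (orange), with marker shapes for livers 1 to 4 and black lines for the mean ± SD (n = 4), cut at 0. The groups are apart in *Ccl5*, *Ccl9*, *Cxcl9*, *Cxcl12* and *Cxcl16*, while FxrKO liver 1 lies high in *Ccl2*, *Cxcl1* and *Cxcl10*.

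*Ccl9* and *Ccl6* are neighbouring genes on chromosome 11 that encode CC chemokines, ligands of CCR1, and *Ccl9* was called higher while *Ccl6* was not called. *Ccl9* (NM_011338, chr11:83572917-83578636) was at 50.3, 58.9, 46.8 and 50.2 CPM in FxrKO livers 1 to 4 and at 129, 159, 111 and 121 CPM in Bcl6LKOFxrKO livers 1 to 4. Every double knockout liver was above every FxrKO liver, and neither group varied by more than 1.43-fold. *Ccl9* was 2.52-fold higher, with a log2FC of 1.33 (standard error, SE, 0.13, edgeR adjusted p = 9.0e-06). *Ccl6* (NM_009139, chr11:83587886-83593087) was at 10.3, 11.9, 4.94 and 13.6 CPM in FxrKO and at 11.4, 10.1, 11.8 and 12.4 CPM in Bcl6LKOFxrKO livers. FxrKO liver 3 was low and the other 7 livers lay close together. The log2FC of *Ccl6* was 0.17, with a 95% confidence interval from -0.36 to 0.69 (edgeR adjusted p = 0.642), and it was -0.07 without FxrKO liver 3. The interval of *Ccl6* ended below that of *Ccl9*, which ran from 1.05 to 1.62, and the difference between the genes was not tested. Their receptor gene *Ccr1* had between 0 and 11 counts per liver and was not tested.

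*Cxcl9* encodes an interferon gamma-induced chemokine that draws CXCR3-positive T and NK cells, and it was called higher. *Cxcl9* (NM_008599, chr5:92321331-92328079) was at 19.5, 15.9, 9.67 and 10.7 CPM in FxrKO and at 27.7, 49.999, 39.2 and 44.9 CPM in Bcl6LKOFxrKO livers. Double knockout liver 1 was the lowest of its group and still above all FxrKO livers. *Cxcl9* had a log2FC of 1.54 (SE 0.24, edgeR adjusted p = 0.000519). *Cxcl10* (NM_021274, chr5:92346639-92348889), its neighbour and a ligand of the same receptor, was at 9.05, 2.75, 1.505 and 2.55 CPM in FxrKO and at 8.56, 6.07, 14.2 and 5.54 CPM in Bcl6LKOFxrKO livers. All double knockout livers were above FxrKO livers 2 to 4, and FxrKO liver 1 lay among the double knockout livers. *Cxcl10* was not called, with a log2FC of 1.11, a 95% confidence interval from -0.10 to 2.32 and an edgeR adjusted p of 0.153. Without FxrKO liver 1 its log2FC was 1.92 (edgeR adjusted p = 0.00254), in the range from 0.00254 to 0.323 over its 16 alternatives. Its exons overlap those of *Art3* on the opposite strand by 133 bases, and 1.39% of its read-length stretches were shared with that gene. *Cxcl11*, the other ligand of CXCR3, for which C57BL/6 mice are known to make no functional protein, was at 2.60, 0.9997, 0.752 and 0.378 CPM in FxrKO and at 3.22, 3.16, 3.80 and 2.81 CPM in Bcl6LKOFxrKO livers. *Cxcl11* was called higher, with a log2FC of 1.45 (SE 0.42, edgeR adjusted p = 0.0199). *Cxcr3* itself was not tested, with 6, 4, 2 and 0 counts in FxrKO and 10, 10, 7 and 9 counts in Bcl6LKOFxrKO livers, and these did not overlap.

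*Cxcl16* encodes a membrane-bound chemokine and scavenger receptor that ADAM10 sheds and that retains CXCR6-positive T and NKT cells in the liver. *Cxcl16* (NR_151497, chr11:70454389-70459984) was at 6.24, 6.50, 7.09 and 7.95 CPM in FxrKO and at 15.4, 21.1, 15.3 and 19.2 CPM in Bcl6LKOFxrKO livers. Its livers were tightly grouped in both genotypes, and every double knockout liver was above every FxrKO liver. *Cxcl16* had a log2FC of 1.35 (SE 0.16, edgeR adjusted p = 4.9e-05), or 2.54-fold. The exons of *Cxcl16* overlap those of *Zmynd15* on the opposite strand by 552 bases, and 14.2% of its read-length stretches were shared with that gene. The stated counting options name no strand, so reads of the pair cannot be told apart there. *Zmynd15* had a log2FC of 0.59 (SE 0.23, edgeR adjusted p = 0.0734). *Adam10*, the protease, was at 19.1 ± 2.20 CPM in FxrKO and 32.6 ± 8.46 CPM in Bcl6LKOFxrKO livers (SD, n = 4) and was called higher, with a log2FC of 0.77 and an edgeR adjusted p of 0.00721. *Cxcr6* had 1 to 9 counts per liver and was not tested.

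*Ccl5*, the gene of RANTES, is made by activated T and NK cells and macrophages and draws T cells and monocytes. It was counted 4, 4, 14 and 7 times in FxrKO livers and 17, 21, 18 and 39 times in Bcl6LKOFxrKO livers (NM_013653, chr11:83525779-83530518). These are few counts, and in CPM they were 0.416, 0.4999, 1.505 and 0.662 against 1.71, 2.55, 1.75 and 3.54. FxrKO liver 3 came close to the lowest double knockout livers, but the groups did not overlap. *Ccl5* had the largest point estimate of the 4 genes called higher, a log2FC of 1.62 with a 95% confidence interval from 0.72 to 2.51 (edgeR adjusted p = 0.0107), which overlapped the intervals of the other 3.

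*Ccl2*, the gene of MCP-1, draws CCR2-positive monocytes. It was counted 25, 5, 3 and 2 times in FxrKO livers and 18, 19, 29 and 20 times in Bcl6LKOFxrKO livers (NM_011333, chr11:82035577-82037452), or 2.60, 0.625, 0.322 and 0.189 against 1.81, 2.31, 2.82 and 1.82 CPM. The double knockout livers lay within 1.56-fold of each other, and FxrKO liver 1 lay among them while FxrKO livers 2 to 4 were all below. *Ccl2* was not called, with a log2FC of 1.21, a 95% confidence interval from -0.04 to 2.47 and an edgeR adjusted p of 0.135. Without FxrKO liver 1 the log2FC was 2.55 (edgeR adjusted p = 0.00138), in the range from 0.00138 to 0.272 over its 15 alternatives. *Ccr2* was called higher, from 1.10 ± 0.593 to 2.62 ± 0.993 CPM (SD, n = 4), with a log2FC of 1.20 (edgeR adjusted p = 0.0387), although the groups overlapped.

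*Cxcl1*, known as KC, draws neutrophils through CXCR2 and is induced within hours of an inflammatory stimulus. It varied more between FxrKO livers than the other 8 tested genes of the 10. *Cxcl1* (NM_008176, chr5:90891245-90893115) was at 40.8, 16.0, 1.505 and 4.07 CPM in FxrKO and at 6.04, 10.9, 5.26 and 1.998 CPM in Bcl6LKOFxrKO livers. The highest FxrKO liver was 27.1 times the lowest, and the double knockout livers fell within that range. Its log2FC was -1.39 with a 95% confidence interval from -3.74 to 0.97 (edgeR adjusted p = 0.342), and it was -0.24 without FxrKO liver 1, so that neither a rise nor a fall was detectable with these livers. *Cxcr2* was not tested, with 3, 3, 0 and 4 counts in FxrKO and 5, 13, 5 and 9 counts in Bcl6LKOFxrKO livers.

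*Cxcl12*, the gene of SDF-1, was the only tested chemokine gene of the 10 that fell. It encodes a homeostatic chemokine that acts through CXCR4 and is taken up by ACKR3. *Cxcl12* (NM_001012477, chr6:117168535-117181368) was at 241, 259, 322 and 324 CPM in FxrKO and at 195, 199, 229 and 179 CPM in Bcl6LKOFxrKO livers. The highest double knockout liver was just under the lowest FxrKO liver. *Cxcl12* had a log2FC of -0.52 (SE 0.13, edgeR adjusted p = 0.00997). Both receptor genes rose. *Cxcr4* was at 0.624, 0.750, 1.40 and 1.32 CPM in FxrKO and at 2.82, 2.55, 3.21 and 3.27 CPM in Bcl6LKOFxrKO livers, with a log2FC of 1.51 (edgeR adjusted p = 0.00216). *Ackr3* had a log2FC of 1.31 (edgeR adjusted p = 0.0475), with overlapping groups, and only Bcl6LKOFxrKO livers 3 and 4, at 5.06 and 3.90 CPM, were above all FxrKO livers.

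*Cxcl13*, which draws B cells through CXCR5, had too few counts to be tested. It was counted 5, 18, 14 and 4 times in FxrKO livers and 5, 1, 6 and 0 times in Bcl6LKOFxrKO livers (NM_018866, chr5:95956939-95961068). FxrKO livers 2 and 3 were the highest and the other livers overlapped. The count of 0 in Bcl6LKOFxrKO liver 4 allows a level of up to 0.272 CPM, for counting error only. *Cxcr5* had at most 8 counts in a liver and was not tested.

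Per kilobase of transcript, *Cxcl12* was the most abundant of the 10 genes in FxrKO livers, at 50.6 ± 7.53 CPM per kb (SD, n = 4), above *Ccl9* at 17.2 ± 1.72 in every liver. *Cxcl1* followed at 16.5 ± 19.0 CPM per kb, a mean set by FxrKO liver 1. From *Ccl9* downward each gene overlapped the next in the order *Cxcl1*, *Ccl6*, *Cxcl9*, *Cxcl16*, *Cxcl10*, *Ccl5*, *Ccl2* and *Cxcl13*, whose levels went from 7.12 for *Ccl6* to 1.01 CPM per kb for *Cxcl13*. In Bcl6LKOFxrKO livers *Ccl9*, at 43.3 ± 6.91 CPM per kb, was above *Cxcl12*, at 35.3 ± 3.66, in 3 of 4 livers, and their ranges overlapped. *Cxcl9* (13.95 ± 3.31 CPM per kb) and *Cxcl16* (10.5 ± 1.71) came next, and both lay above the 8.70 CPM per kb of *Ccl6* in its highest liver. *Cxcl10*, *Cxcl1* and *Ccl5* lay between 7.86 and 4.54 CPM per kb with overlapping livers. *Ccl2* (2.73 ± 0.602) and *Cxcl13* (0.262 ± 0.247) were the lowest, and their livers did not overlap.

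Several inducible genes were highest in the same FxrKO liver. FxrKO liver 1 had the highest level among FxrKO livers in 4 of the 9 tested chemokine genes (*Ccl2*, *Cxcl1*, *Cxcl9* and *Cxcl10*), or 44.4%, against 26.5% of all tested genes. It was also highest in 5 of 8 tested chemokine receptors, in 9 of 23 tested genes of the NF-kappaB pathway and in 10 of 24 of the interferon gamma pathway. *Cxcl1* was at 40.8 CPM in that liver and at most at 10.9 CPM in double knockout livers. Without FxrKO liver 1, 6 of the 9 tested chemokine genes were called higher, with *Ccl2* and *Cxcl10* added, and over all genes tested in that fit 14.7% were called higher and 11.5% lower. Both added genes were highest within the FxrKO group in that liver, so their gain follows largely from its choice and is no separate evidence. Leaving out any other single liver kept the count at 4. *Cxcl12* was called lower with and without FxrKO liver 1.

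**Figure D2:**
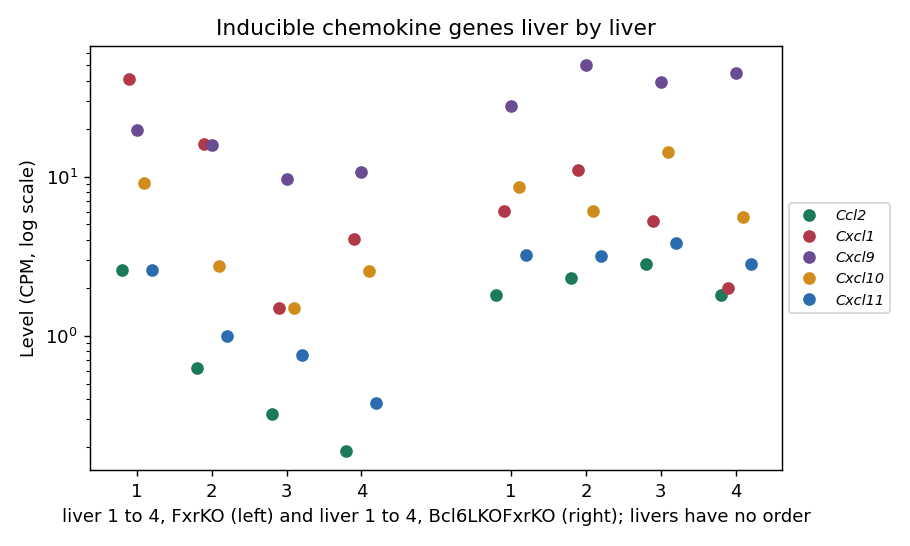
Level in CPM (y axis, log scale) of 5 inducible chemokine genes (colours) in FxrKO livers 1 to 4 on the left and Bcl6LKOFxrKO livers 1 to 4 on the right. Each point is 1 liver. All 5 genes are highest within the FxrKO group in liver 1, where *Cxcl1* reaches 40.8 CPM, and the double knockout livers lie closer together.

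The likeness of these genes across livers, once the mean of each genotype was removed, was lower without FxrKO liver 1. Over the 8 livers, Pearson's r of log2(CPM + 0.5) was 0.976 between *Ccl2* and *Cxcl11*, 0.86 between *Ccl2* and *Cxcl10* and 0.805 between *Ccl2* and *Cxcl1*. Over the 7 livers other than FxrKO liver 1 these were 0.881, 0.499 and 0.6. For the 10 pairs among *Ccl2*, *Cxcl1*, *Cxcl9*, *Cxcl10* and *Cxcl11*, r ran from 0.447 to 0.976 over the 8 livers. Over the 7 it ran from -0.0738 to 0.881, and it was lower in each pair. All of these genes were highest within the FxrKO group in liver 1, so the drop follows largely from their choice and is no separate evidence. The value of r went from 0.447 to -0.0738 between *Cxcl9* and *Cxcl10*, from 0.628 to 0.268 between *Cxcl9* and *Cxcl11* and from 0.81 to 0.336 between *Cxcl10* and *Cxcl11*. Among the 153 tested genes of the chemokine, pathway and marker lists, the gene most like *Ccl2* was *Cxcl11*. The most like *Cxcl1* was *Sox9* (r = 0.937), the most like *Cxcl9* was *Relb* (0.957), and the most like *Cxcl10* was *Cxcl14* (0.939). For *Ccl9* it was *Prom1* (0.944), for *Ccl6* it was *Nfkbiz* (0.854), for *Ccl5* it was *Nfkbia* (0.786), for *Cxcl12* it was *Fcgr2b* (0.879) and for *Cxcl16* it was *Col3a1* (0.842). Without FxrKO liver 1 these 9 values lay between 0.8 and 0.973. Each gene was picked as the highest of 153 over the same livers, so high values follow from that choice, also over the 7. All points share the 8 libraries and their scaling, and these values are descriptions.

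Among 31 other chemokine ligand genes only 7 had enough counts for a test. *Cx3cl1*, a membrane-bound chemokine of endothelium and epithelium, rose from 1.28 ± 0.399 to 4.82 ± 2.02 CPM (SD, n = 4), with a log2FC of 1.90 (SE 0.34, edgeR adjusted p = 0.00105). With *Cxcl11* it made up the 2 called higher. *Ccl25* and *Ccl27a* were called lower, with log2FCs of -0.97 (edgeR adjusted p = 0.0319) and -0.96 (edgeR adjusted p = 0.00385). *Ccl27a* has near-identical copies, so its count is uncertain. *Cxcl14* (log2FC 1.15, edgeR adjusted p = 0.054), *Pf4* (1.18, edgeR adjusted p = 0.0636) and *Ccl24* (-0.68, edgeR adjusted p = 0.183) were not called. Of the 24 untested ligands, 7 had no count in any liver. *Ccl4*, which draws monocytes and T cells, had 3, 1, 1 and 0 counts in FxrKO and 6, 9, 9 and 8 counts in Bcl6LKOFxrKO livers.

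Of 23 chemokine receptor genes 8 were tested, of which 5 rose and 1 fell. *Cx3cr1*, the receptor of the *Cx3cl1* product and a marker of monocyte-derived cells, was at 2.71, 0.9997, 1.29 and 1.70 CPM in FxrKO and at 7.25, 13.1, 6.04 and 4.90 CPM in Bcl6LKOFxrKO livers. Ligand and receptor were thus both higher in every double knockout liver than in any FxrKO liver. The log2FC of *Cx3cr1* was 2.18 (SE 0.36, edgeR adjusted p = 0.000697). *Ccrl2*, a non-signalling receptor that presents chemerin, rose by 1.80 on the log2 scale (edgeR adjusted p = 0.00288), and *Ccr2*, *Cxcr4* and *Ackr3* rose as given above. *Ackr4*, a scavenger of CCL19, CCL21 and CCL25, fell from 17.9 ± 0.431 to 12.0 ± 1.62 CPM (SD, n = 4), with a log2FC of -0.58 (edgeR adjusted p = 0.00623). *Ackr2* was not called (log2FC 0.56, edgeR adjusted p = 0.342). Together 7 of the 15 tested other ligands and receptors were called higher and 3 lower, against the 16.2% and 13.5% of all genes. Of the 7 called higher, all but *Cx3cr1* had enough counts for a test only through the Bcl6LKOFxrKO livers. *Ccl25*, called lower, had them only through the FxrKO livers. The filter thus shaped these counts, and without it 10 of 46 genes were called higher and 3 lower. Without FxrKO liver 2, and likewise without FxrKO liver 3, 4 of the 15 were called higher. With at least 10 counts required in every liver none was, and 3 were left to test.

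**Figure D3:**
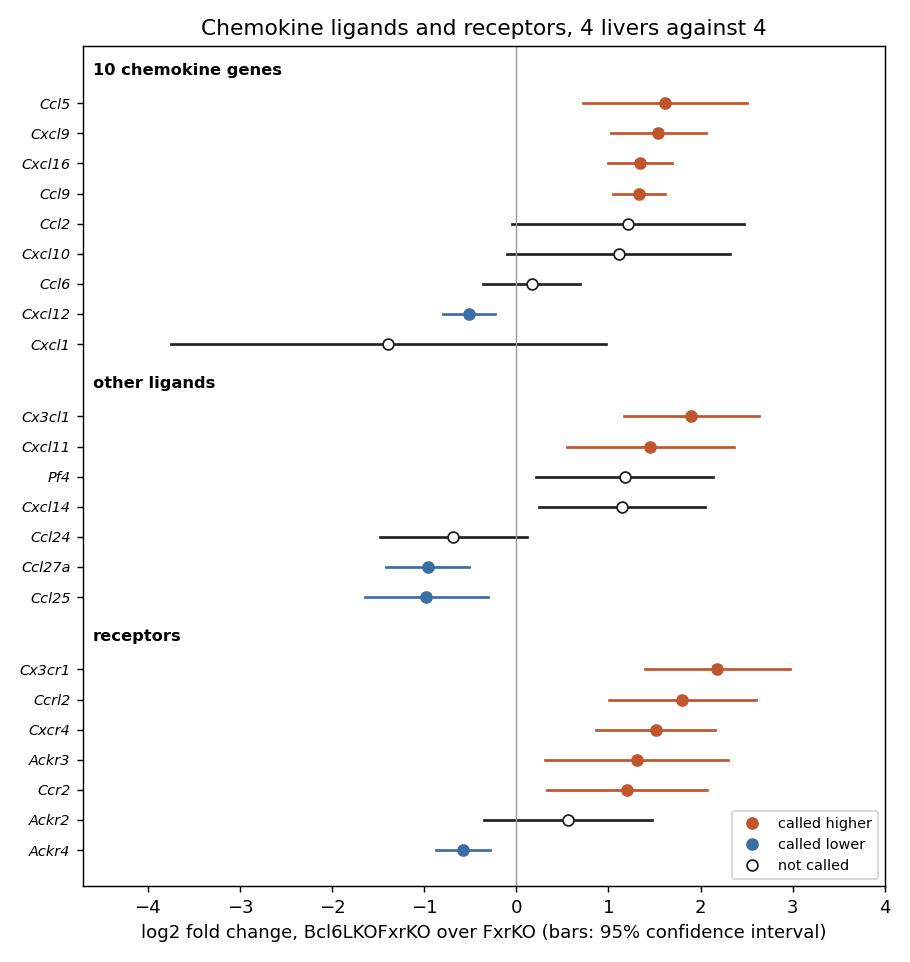
Log2 fold change of Bcl6LKOFxrKO over FxrKO livers (x axis) with its 95% confidence interval for the tested chemokine genes, the tested other ligands and 7 of the 8 tested receptors, 4 livers against 4. Filled orange and blue points were called higher and lower at an adjusted p under 0.05 from edgeR, and open points were not called, among them *Cxcl1* with an interval from -3.74 to 0.97.

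Genes that process or carry chemokines were mixed. Of 10 tested, 4 rose, *Sdc1* (log2FC 1.41), *Mmp2* (1.23), *Mmp12* (1.93) and *Adam10* (0.77), and *Sdc4* fell by 0.42 on the log2 scale, against the 16.2% higher and 13.5% lower of all tested genes. *Sdc1*, a heparan sulfate proteoglycan of hepatocytes that binds chemokines, was the most abundant of the 4 that rose, at 221 CPM in FxrKO and 589 CPM in Bcl6LKOFxrKO livers on average. *Mmp12* had only 6 counts in FxrKO liver 3, so that it had enough counts in all 4 livers only in the Bcl6LKOFxrKO group. Its call is therefore no separate support. The median of the 10 was 0.03, near the 0.01 of all tested genes.

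In the NF-kappaB pathway and its early targets 6 of 23 tested genes (26.1%) rose and 1 fell, against 16.2% and 13.5% of all tested genes, with a median log2FC of 0.28. *Egr1*, an immediate early transcription factor, rose most, from 13.1 to 66.3 CPM on average (log2FC 2.34, edgeR adjusted p = 0.00131). *Relb*, a subunit of the non-canonical pathway, rose by 1.23 on the log2 scale, the inhibitor gene *Nfkbie* by 1.03 and the adhesion molecule gene *Vcam1* by 1.05. *Nfkbia*, the inhibitor gene that NF-kappaB itself induces, fell by 0.54 on the log2 scale (edgeR adjusted p = 0.00354). *Tnf* had 0 to 6 counts per liver and *Il6* had none in any liver. In the interferon gamma pathway 6 of 24 tested genes (25%) rose and none fell, against the same 16.2% and 13.5%, with a median log2FC of 0.28. The GTPase gene *Gbp6* rose most, from 4.63 to 22.6 CPM on average (log2FC 2.28, edgeR adjusted p = 3.8e-05). *Ciita*, the master regulator of MHC class II, rose by 1.53 on the log2 scale. It had 8, 15, 1 and 6 counts in FxrKO and 18, 25, 24 and 26 in Bcl6LKOFxrKO livers. Only the Bcl6LKOFxrKO group had enough counts of *Ciita* in all 4 livers, so this call is no separate support. *Igtp*, *Irf8* and *Irgm2* rose by 0.66, 0.62 and 0.74. *Ifng* was counted once in each of 2 livers, so its level could not be compared.

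Several lists of markers of cells that make chemokines or respond to them were higher in Bcl6LKOFxrKO livers, and their part in the differences above was not tested. Their counts are read against the 16.2% of all tested genes called higher and the 13.5% called lower, and the shares called higher of the endothelial and hepatocyte lists were the nearest to the former. Of 17 tested macrophage and monocyte markers 7 were called higher, and their summed level was 703 to 1007 CPM in FxrKO and 997 to 1477 CPM in Bcl6LKOFxrKO livers. The most abundant of them, *Mpeg1*, *Cd5l* and *Clec4f*, the last a defining marker of Kupffer cells, were not called, with log2FCs of 0.14, 0.39 and 0.20. The 7 were *Cd68*, *Lyz2*, *C1qa*, *C1qb*, *C1qc*, *Cx3cr1* and *Ccr2*, the last tested only through the Bcl6LKOFxrKO livers. Of the others in the list, *Itgam* and *Cd14* were also not called, with log2FCs of 0.35 and 0.84, and *Ly6c2* was not tested. The T and NK cell list summed to 4.41 to 5.20 CPM in FxrKO and 11.2 to 17.2 CPM in Bcl6LKOFxrKO livers. Only *Lck* of its 16 listed genes was tested, with 6, 4, 2 and 7 counts in FxrKO and 11, 17, 19 and 27 in Bcl6LKOFxrKO livers. *Lck* was called higher, but it had enough counts for a test only through the Bcl6LKOFxrKO livers, so this call is no separate support. Neutrophil markers summed to 5.80 to 13.6 and 15.01 to 29.5 CPM (2 of 3 tested called higher), dendritic cell markers to 5.70 to 9.93 and 13.5 to 19.4 CPM (1 of 3), and B and plasma cell markers to 4.999 to 9.67 and 9.71 to 15.7 CPM (1 of 2). Stellate cell and fibroblast markers summed to 246 to 346 and 517 to 636 CPM, with 11 of 14 called higher. Of those called, *Hgf* and *Thy1* had enough counts in all 4 livers only in the Bcl6LKOFxrKO group, so their calls are no separate support. *Lrat*, *Col1a1* and *Acta2* were not called, with log2FCs of 0.79, 0.76 and 0.75. Cholangiocyte markers summed to 60.1 to 87.8 and 112 to 219 CPM (4 of 8 called higher), endothelial markers to 235 to 323 and 323 to 405 CPM (3 of 12) and erythrocyte markers to 732 to 1082 and 969 to 1453 CPM (5 of 6 higher and 1 lower). Of the called cholangiocyte markers, *Krt19*, *Cldn4* and *Prom1* likewise had enough counts in all 4 livers only in the Bcl6LKOFxrKO group. Hepatocyte markers summed to 67150 to 79340 and 160600 to 182200 CPM, a sum led by *Alb*, and of 9 tested 2 were called higher and 2 lower. No gene of the marker lists that was in the table was at 0 counts in every liver.

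**Figure D4:**
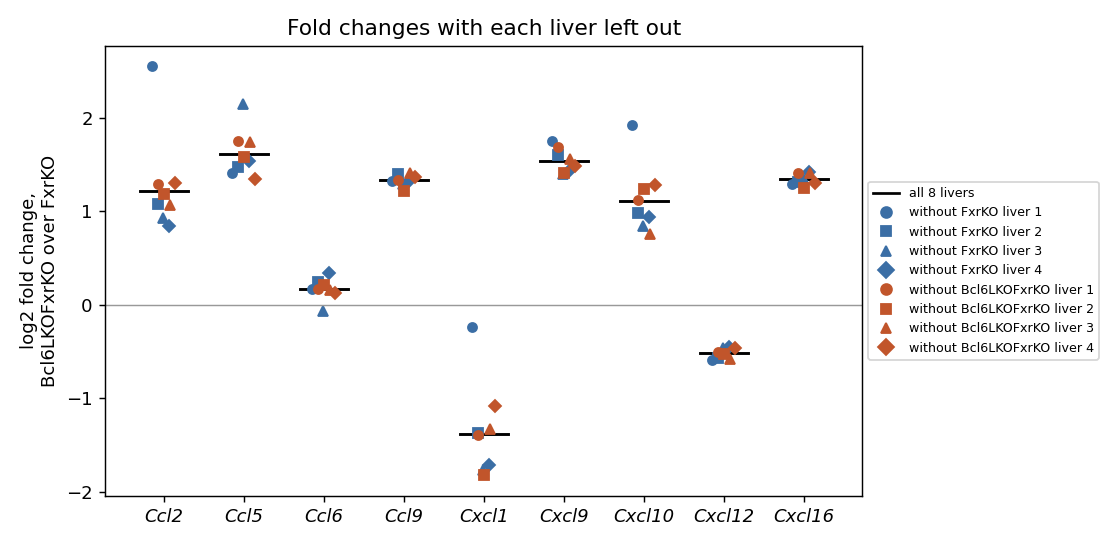
Log2 fold change of Bcl6LKOFxrKO over FxrKO livers (y axis) of the 9 tested chemokine genes with all 8 livers (black lines) and with each liver left out (points, blue for FxrKO and orange for Bcl6LKOFxrKO livers). *Ccl9*, *Cxcl9*, *Cxcl12* and *Cxcl16* move little, whereas leaving out FxrKO liver 1 takes *Ccl2* to 2.55, *Cxcl10* to 1.92 and *Cxcl1* to -0.24.

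With each liver left out in turn, the log2FC of *Ccl9* stayed between 1.21 and 1.40, that of *Cxcl16* between 1.24 and 1.42, that of *Cxcl9* between 1.40 and 1.75 and that of *Cxcl12* between -0.60 and -0.45. *Ccl5* ranged from 1.35 to 2.14 and stayed called in each of these fits. The exact two-sided permutation test on log2(CPM + 0.5) gave p = 0.029 for each of the 5 called genes, the smallest that 4 livers against 4 allow. Any gene whose groups do not overlap gets this value, as 31.3% of all tested genes do. For the 5 genes it therefore restates the lack of overlap and adds no separate support.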

How the data were processed

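Liver RNA of 4 FxrKO and 4 Bcl6LKOFxrKO males was sequenced as single-end reads from stranded, polyA-selected libraries. STAR 2.5.2 was used by the authors for alignment to mm10, with no more than 4 mismatches and a unique position. The deposited values are exon counts that were not normalized, from HOMER 4.10, which kept 1 transcript per gene and was given no strand option in the stated command. Livers were grouped by the genotype in the labels and numbered 1 to 4 within a genotype.

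Tests used edgeR 4.0.16 under R 4.3.3 (filterByExpr, TMM, robust quasi-likelihood fit, genotype as the only term), with Benjamini-Hochberg adjustment over the 12340 tested genes. Genes were called at an adjusted p under 0.05. The script was tested on simulated data. The study's methods name DESeq2. DESeq2 1.42.0, limma 3.58.1 (voom), other scalings and filters, a log2 fold threshold of 0.5, leaving out each liver and a block of library number runs were alternatives. Levels per kilobase use the transcript lengths in the file.

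The 10 genes and the gene lists were chosen with earlier results of these data known. All 10 were named, with every tested ligand and receptor except 1 receptor that is not reported here, up to 5 called genes per direction of the other chemokine lists, the 3 most abundant markers of a list where given, and the list gene most like each member. *Ccl4*, *Tnf*, *Il6*, *Ifng*, *Zmynd15*, *Art3* and the untested receptors were named after their values were seen. So were the markers *Lck*, *Cx3cr1*, *Ccr2*, *Cd68*, *Lyz2*, *C1qa*, *C1qb*, *C1qc*, *Itgam*, *Cd14* and *Ly6c2*. The same holds for the markers *Hgf*, *Thy1*, *Lrat*, *Col1a1*, *Acta2*, *Krt19* and *Cldn4*. With 7586241 to 11839503 counts per liver, genes with few counts are imprecise. Floors cover counting error only. Pairs of livers of a genotype differed by more than sampling noise (chi-square per degree of freedom 10.7 to 49.3).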

Additional observations from a re-analysis of the deposited data

Results flagged for a closer look

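In 8 of 82 groups of 4 livers, 1 liver stood apart. The measure was the ratio of its gap to the nearest liver over the range of the group. Chance would give about 4 if the groups were independent and normally distributed. These groups share livers and genes, so the 8 cannot be read as an excess over chance. *Cxcl10* was at 9.05 CPM in FxrKO liver 1 and at 1.505 to 2.75 CPM in the other FxrKO livers (ratio 0.835). The summed chemokine receptors were also highest in FxrKO liver 1, at 39.0 CPM against 34.2 to 34.9 (0.849), and the summed hepatocyte markers lowest, at 67150 CPM against 77280 to 79340 (0.831).

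In FxrKO liver 3 the T and NK cell sum was low, at 4.41 CPM against 5.12 to 5.20 (0.898), and the B and plasma cell sum was high, at 9.67 CPM against 4.999 to 5.31 (0.934). In Bcl6LKOFxrKO liver 2 the B and plasma cell sum was low, at 9.71 CPM against 14.9 to 15.7 (0.867). The stellate cell and fibroblast sum was high there, at 636 CPM against 517 to 524 (0.941), as was the hepatocyte sum, at 182200 CPM against 160600 to 164000 (0.843).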

How the results depend on the processing

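The labels pair no livers, but the library numbers in their titles fall into 3 runs of consecutive numbers, with Bcl6LKOFxrKO liver 1 alone, FxrKO liver 1 with Bcl6LKOFxrKO liver 2, and the other 5 livers together. What a run stands for was not given. Livers of the 2 genotypes with consecutive numbers deviated from their group means with r between -0.0718 and 0.158 in 5 pairs. With these runs as a replicate block, an alternative chosen after seeing the data in which Bcl6LKOFxrKO liver 1 carries no weight, 4 chemokine genes were called higher and 1 lower, and each of the 9 kept its call. The count of chemokine genes called lower was 1 in every alternative run, and the count called higher was 4 except 3 with at least 10 counts in every liver, where *Ccl5* and *Ccl2* were not tested, and 6 with voom and without FxrKO liver 1. The 2 added in both were *Ccl2* (log2FC 1.82, adjusted p = 0.0191 with voom) and *Cxcl10* (1.499, adjusted p = 0.0424 with voom). The log2FC of *Ccl6* changed sign only without FxrKO liver 3, to -0.067 (edgeR adjusted p = 0.805), and reached 0.34 without FxrKO liver 4. Without a filter *Cxcl13* had a log2FC of -1.87 (edgeR adjusted p = 0.0778). Of the other ligands and receptors, 7 were called higher, 10 without a filter, 4 to 9 with each liver left out, and 0 with at least 10 counts in every liver, where 3 were tested. Total counts alone called 2949 of all genes lower, against 1665. Of the values of single chemokine genes under alternatives, 146 kept direction and call, 4 gained a call and 1 changed sign. Counts of few reads limit *Ccl2*, *Ccl5* and *Cxcl13*, and the spread of FxrKO livers limits *Cxcl1*.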
